A study of Mus musculus with 72 samples.

Results

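The Fos family of AP-1 comprises Fos, Fosb, Fosl1 and Fosl2. Its 4 genes were taken as the rows of the deposited count table whose Ensembl identifiers map to these symbols in the GRCm38 annotation, and they are 4 of the 35275 genes listed. Expression was measured by mRNA sequencing of brain tissue from C57BL/6 mice aged 7 months, in 72 libraries that form 24 groups of 3. Stroke was modelled by middle cerebral artery occlusion (MCAO) of 1 h in 1 hemisphere, and RNA came from a mid-coronal section of cerebrum of that hemisphere. The 6 stages were sham, ischemia alone (taken at the end of the 1 h occlusion) and reperfusion for 3, 12, 24 and 72 h, and each was sampled under 4 feeding regimens. EOD mice alternated 24 h without food with 24 h of free feeding, IF12 mice fasted for 12 h and IF16 mice for 16 h of every day, and AL mice had food at all times. The daily fasting is given as 4 months long. Nothing in the labels ties the 3 libraries of a group to separate mice, so p-values measure only how these samples vary, which may be technical.

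Fos proteins are basic leucine zipper transcription factors that form AP-1 dimers with Jun proteins and bind short DNA sites in promoters and enhancers. Fos and Fosb are immediate early genes, which neurons transcribe within minutes of calcium entry or growth factor signalling through factors already present, such as CREB and SRF. Fosl1 (Fra-1) and Fosl2 (Fra-2) are themselves AP-1 targets in many cells and tend to appear later and to stay longer. Fos is widely used in the brain as a marker of recently active neurons, and the stable ΔFosB product of Fosb accumulates with repeated stimulation.

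Fos (ENSMUSG00000021250) lies at chr12:85473890-85477273 on the + strand of GRCm38, Fosb (ENSMUSG00000003545) at chr7:19302696-19310051 on the − strand, Fosl1 (ENSMUSG00000024912) at chr19:5447547-5455946 on the + strand and Fosl2 (ENSMUSG00000029135) at chr5:32135801-32157842 on the + strand. All 4 are protein-coding genes. The 3′ part of Fosl1 overlaps Ccdc85b on the opposite strand over 2767 bases, and whether the counting used strand is not given in the sources used here. Fosl1 values are therefore uncertain: reads from the 2 genes cannot be told apart without strand, and Ccdc85b reached 6897 counts in a library while Fosl1 reached 1103. The RefSeq promoter table of build GRCm38.p6 holds 3 of the 4 genes and not Fosl1. The 150 bases upstream of each RefSeq start are shown because they hold the cAMP response element (CRE) near the Fos start, through which calcium signals are known to act, at chr12:85473740-85473889 (+) for Fos, chr7:19310046-19310195 (−) for Fosb and chr5:32136322-32136471 (+) for Fosl2, whose RefSeq start lies inside the annotated gene. Capitals mark the short CRE site TGACG and the TATA box TATAA on the gene's own strand.
Fos: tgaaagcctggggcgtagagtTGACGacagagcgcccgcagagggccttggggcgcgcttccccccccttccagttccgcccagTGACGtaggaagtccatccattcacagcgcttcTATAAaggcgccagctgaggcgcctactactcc
Fosb: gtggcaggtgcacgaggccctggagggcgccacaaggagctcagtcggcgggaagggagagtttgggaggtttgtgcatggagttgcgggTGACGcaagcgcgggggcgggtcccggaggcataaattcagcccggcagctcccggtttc
Fosl2: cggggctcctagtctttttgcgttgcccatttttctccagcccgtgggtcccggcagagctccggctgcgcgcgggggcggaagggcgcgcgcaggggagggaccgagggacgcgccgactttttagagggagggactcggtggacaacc
In windows from 250 bases before to 50 after each start, TGACG began at -129 and -66 in Fos and at -60 in Fosb, counted from the start, and Fos had TATAA at -33. The GC box GGGCGG began at -235, -230 and -46 in Fosb and at -75 in Fosl2, and at -74 on the opposite strand in Fos. Fosl2 had neither TGACG nor TATAA in this window, on either strand. The AP-1 site TGANTCA, the full CRE TGACGTCA, which contains TGACG, and the CArG box were not in any of the 3 windows. Bases further upstream were not searched, so these genes may hold such sites there. Of 32851 RefSeq promoter windows of the same length, 20.81% held TGACG on either strand, 24.87% TATAA, 35.66% GGGCGG, 7.81% TGANTCA, 1.79% TGACGTCA and 1.63% a CArG box.

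All 4 genes had reads in all 72 libraries and all 4 passed the filter on low counts. Library totals ran from 16735707 to 24763161 counts. All 8 neuronal markers were detected at every stage. A pair of libraries stood apart from the others of their stage in the counts of the Fos genes, and results were also computed without both, an alternative chosen after seeing the data. Replicate 1 of the 3 h EOD group also had a summed level of 16 other immediate early genes of 981 CPM, against 2465 to 5595 CPM in the other 11 libraries of 3 h and 813 to 1583 CPM in sham. Replicate 1 of the 24 h IF16 group also had a summed neutrophil marker level of 47.8 CPM, against 0.709 and 1.35 CPM in the other libraries of its group. By that sum other libraries differed from their groups too. Replicate 1 of 12 h AL had 60.6 CPM, against 3.02 and 6.52 CPM in the other libraries of its group, and replicate 1 of 24 h AL had 1.08 CPM, against 61.9 and 35.98 CPM. These were left out singly only.

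Levels below are TMM-scaled CPM (counts scaled to library size) and serve to compare libraries, not genes. Fos had 12.0 to 38.8 CPM in the 12 sham libraries, with a median of 27.8 CPM. Its range and median were 31.4 to 119 and 96.7 CPM after ischemia alone, 25.4 to 688 and 339 CPM at 3 h, 7.36 to 131 and 24.8 CPM at 12 h, 25.9 to 172 and 45.1 CPM at 24 h, and 14.7 to 48.6 and 28.2 CPM at 72 h. The level of Fos was thus highest at 3 h, where replicate 1 of EOD, at 25.4 CPM, was the only library of the 12 inside the sham range. Fosb, the other early gene, had 11.8 to 32.5 CPM in sham with a median of 17.7 CPM. Its range and median were 19.0 to 97.3 and 55.6 CPM after ischemia alone, 45.8 to 728 and 350 CPM at 3 h, 12.0 to 45.1 and 15.8 CPM at 12 h, 9.36 to 152 and 14.9 CPM at 24 h, and 6.99 to 22.4 and 14.3 CPM at 72 h. Every 3 h library was above every sham library for Fosb, and the single high value at 24 h, 152 CPM, was replicate 1 of IF16.

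Fosl1 (Fra-1) varied least among sham libraries relative to its level, 1.68-fold, with 4.66 to 7.80 CPM and a median of 6.97 CPM. Its range and median were 6.16 to 8.11 and 7.17 CPM after ischemia alone, 7.99 to 18.9 and 13.4 CPM at 3 h, 6.45 to 34.8 and 9.99 CPM at 12 h, 6.38 to 49.3 and 26.1 CPM at 24 h, and 5.26 to 19.3 and 7.55 CPM at 72 h. The highest stage median of Fosl1 was at 24 h, where all but 1 of 12 libraries lay above every sham library. Fosl2 (Fra-2) had 28.4 to 78.5 CPM in sham with a median of 37.6 CPM. Its range and median were 42.5 to 115 and 75.2 CPM after ischemia alone, 71.6 to 363 and 219 CPM at 3 h, 33.4 to 119 and 46.7 CPM at 12 h, 40.0 to 127 and 59.8 CPM at 24 h, and 23.1 to 63.3 and 40.7 CPM at 72 h. Fosl2 peaked at 3 h, as Fos and Fosb did, and no 72 h library lay above its sham range.

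**Figure D1:**
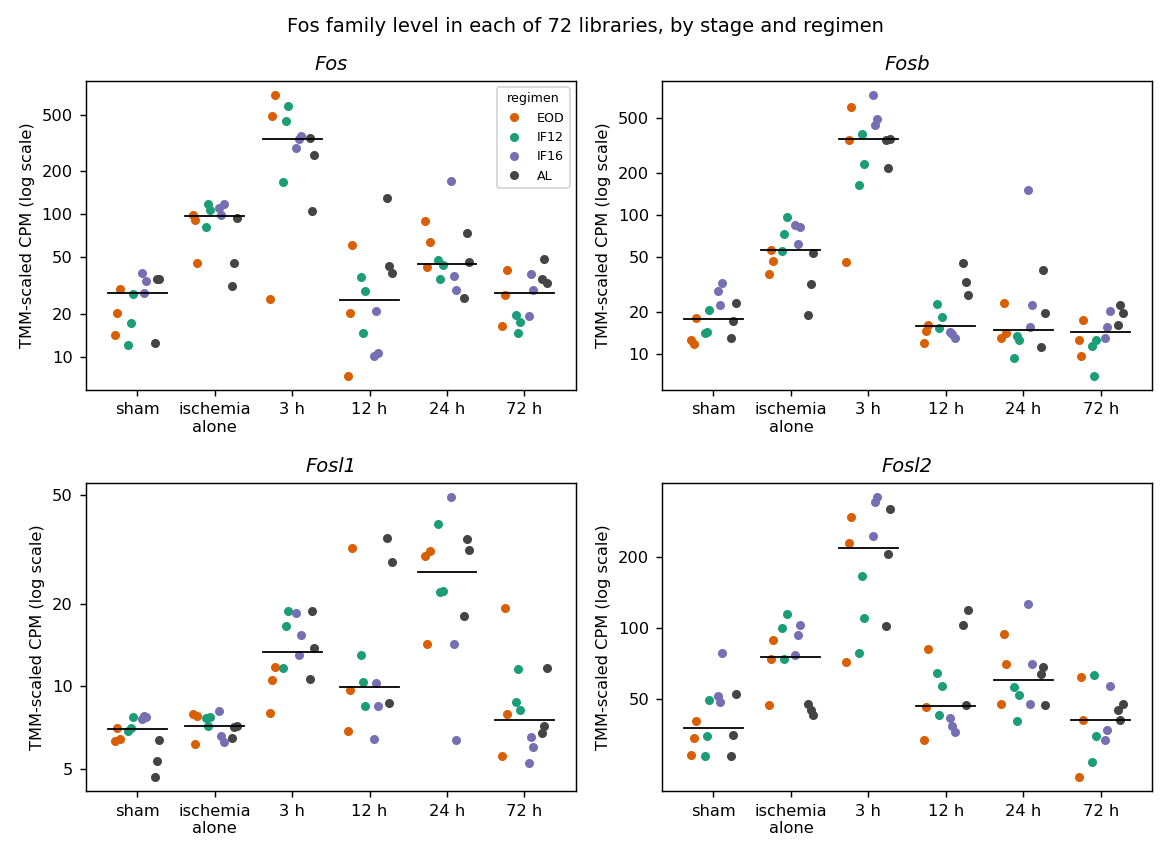
TMM-scaled CPM (log axis) of each member in each of the 72 libraries, by stage from sham to 72 h of reperfusion, with 1 point a library coloured by feeding regimen and a black bar at the median of the 12 libraries. Fos, Fosb and Fosl2 have their highest medians at 3 h (339, 350 and 219 CPM) and Fosl1 at 24 h (26.1 CPM).

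After ischemia alone, averaged over the 4 regimens, the early genes rose and the Fra genes did not pass the test. Fos was 3.40-fold higher than in sham (log2 fold change 1.77 ± 0.33 SE, edgeR adjusted p = 0.00204) and Fosb 2.99-fold (1.58 ± 0.26, adjusted p = 0.000273). These were 2 members of 4, where 0.116% of all 17268 genes tested were called higher and 0.139% in either direction. Fosl2 had a log2 fold change of 0.81 ± 0.20 (adjusted p = 0.0783), and 7 of its 12 libraries lay within the sham range. DESeq2 called Fosl2 (adjusted p = 0.0192), as did edgeR without the pair of libraries that stood apart (adjusted p = 0.0207). Fosl1 had a log2 fold change of 0.10 ± 0.23 (adjusted p = 0.991). The calls of Fos and Fosb were lost in fits with fewer libraries, without the IF12 regimen at 1.54 (adjusted p = 0.359) and 1.38 (adjusted p = 0.133), without replicate number 2 at 1.75 (adjusted p = 0.396) and 1.5 (adjusted p = 0.149), and without replicate number 3 at 1.89 (adjusted p = 0.174) and 1.59 (adjusted p = 0.135). All contrasts against sham share the same sham libraries.

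At 3 h of reperfusion all 4 members were higher than in sham, where 10.7% of all genes were called higher and 21.8% in either direction. Fosb rose 18.8-fold (log2 fold change 4.23 ± 0.28, edgeR adjusted p = 2.85e-16). Fos rose 13.5-fold (3.75 ± 0.35, adjusted p = 2.7e-11), Fosl2 4.82-fold (2.27 ± 0.20, adjusted p = 1.1e-11) and Fosl1 2.05-fold (1.04 ± 0.22, adjusted p = 0.000546). Every 3 h library was above every sham library for Fosb and Fosl1, a separation that 103 genes or 0.596% of those tested showed. Fos and Fosl2 had 11 of 12 libraries above the sham range, and the exception was replicate 1 of EOD for both genes. Without the libraries that stood apart, the log2 fold changes were 3.90 for Fos, 4.37 for Fosb, 1.08 for Fosl1 and 2.38 for Fosl2. Ccdc85b, the gene that overlaps Fosl1, had a log2 fold change of 0.34 at 3 h (adjusted p = 0.0298).

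At 12 h of reperfusion Fosl1 was the member that passed the test, 2.04-fold higher than in sham (log2 fold change 1.03 ± 0.22, edgeR adjusted p = 0.000811), where 11.8% of all genes were called higher and 21.6% in either direction. Fos was at 0.26 ± 0.32 (adjusted p = 0.605), Fosb at 0.04 ± 0.26 (adjusted p = 0.93) and Fosl2 at 0.45 ± 0.20 (adjusted p = 0.095). The Fosl1 call was lost without the AL regimen (0.65, adjusted p = 0.102) or replicate number 3 (0.82, adjusted p = 0.114), and Fosl2 was called without replicate 2 of 12 h AL (0.51, adjusted p = 0.0466) or without the IF16 regimen (0.80, adjusted p = 0.0147). Ccdc85b had -0.17 at 12 h (adjusted p = 0.323). At the same stage 4 of 8 monocyte and macrophage markers and 2 of the 5 neutrophil markers tested were higher, and 5 of 8 microglial markers lower, and their part in the Fosl1 level was not tested.

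At 24 h Fosl1 reached its largest difference from sham, 3.88-fold (log2 fold change 1.96 ± 0.23, edgeR adjusted p = 2.05e-09). Fos was 2.31-fold higher (1.21 ± 0.32, adjusted p = 0.00167) and Fosl2 1.55-fold (0.63 ± 0.20, adjusted p = 0.00661), so 3 members of 4 were called higher where 25.4% of all genes were and 49.8% were called in either direction. Fosb had 0.34 ± 0.26 (adjusted p = 0.272). Without the libraries that stood apart, Fosl1 was at 1.67, Fos at 0.90 (adjusted p = 0.00384), Fosl2 at 0.52 (adjusted p = 0.0148) and Fosb at -0.08 (adjusted p = 0.719). The Fosl2 call was lost without replicate number 1 (0.38, adjusted p = 0.102) or 2 (0.56, adjusted p = 0.0772). Ccdc85b was at 0.37 (adjusted p = 0.00791).

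At 72 h edgeR called 0 of the 4 members, 0 passed at an unadjusted p under 0.05 and 0 with DESeq2, where 27.2% of all genes were called. The log2 fold changes were 0.13 for Fos, -0.35 for Fosb, 0.35 for Fosl1 and 0.04 for Fosl2. Some ratios between members and the share of Fosb within libraries still differed from sham at 72 h, as given below.

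**Figure D2:**
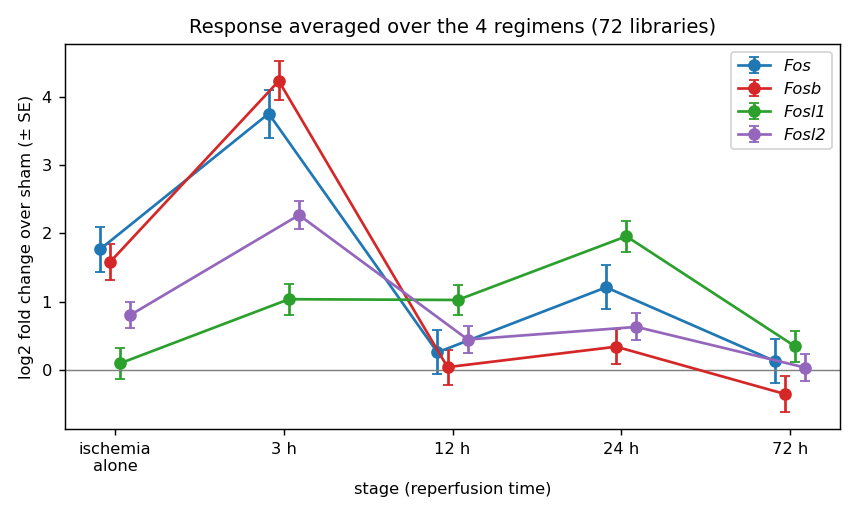
Log2 fold change over sham, averaged over the 4 regimens, with bars of 1 SE, for each member at ischemia alone and at 3, 12, 24 and 72 h of reperfusion (edgeR fit of 72 libraries). Fosb, Fos and Fosl2 peak at 3 h (4.23, 3.75 and 2.27) and Fosl1 at 24 h (1.96).

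Between neighbouring stages Fosl1 parted from the other members after 3 h, while ratios between members already differed from sham after ischemia alone. Going from ischemia alone to 3 h, all 4 were called higher at 3 h, where 7.91% of genes were, with log2 differences of 1.99 ± 0.32 for Fos, 2.65 ± 0.26 for Fosb, 0.94 ± 0.22 for Fosl1 (edgeR adjusted p = 0.00254) and 1.46 ± 0.20 for Fosl2. From 3 to 12 h, where 12% of genes were called lower, Fos fell by 3.49 ± 0.35, Fosb by 4.19 ± 0.28 and Fosl2 by 1.82 ± 0.20, while Fosl1 was at -0.01 ± 0.22 (adjusted p = 0.977). From 12 to 24 h, where 16.4% of genes were called higher, Fosl1 was higher at 24 h by 0.93 ± 0.22 (adjusted p = 0.0016) and Fos by 0.95 ± 0.32 (adjusted p = 0.0199). Fosb (0.30, adjusted p = 0.383) and Fosl2 (0.18, adjusted p = 0.485) did not pass the test between those times. From 24 to 72 h, where 11.6% of genes were called lower, Fosl1 fell by 1.61 ± 0.22 (adjusted p = 5.16e-07), Fos by 1.08 ± 0.32 (adjusted p = 0.0108), Fosb by 0.69 ± 0.26 (adjusted p = 0.0442) and Fosl2 by 0.60 ± 0.20 (adjusted p = 0.0214). The Fosl1 call from ischemia alone to 3 h was lost without replicate number 2 (0.84, adjusted p = 0.0634) or 3 (0.88, adjusted p = 0.0613) or IF12 (0.89, adjusted p = 0.0803). That from 12 to 24 h was lost without replicate number 1 (0.58, adjusted p = 0.0757) or IF12 (0.77, adjusted p = 0.113). Without replicate 1 of IF16 at 24 h, Fos from 12 to 24 h was at 0.63 (adjusted p = 0.113), and from 24 to 72 h Fos was at -0.76 (adjusted p = 0.0715), Fosb at -0.26 (adjusted p = 0.437) and Fosl2 at -0.48 (adjusted p = 0.0742). Without both libraries that stood apart, Fos from 12 to 24 h was at 0.64 (adjusted p = 0.0548), and from 24 to 72 h Fos was at -0.77 (adjusted p = 0.0288), Fosb at -0.27 (adjusted p = 0.285) and Fosl2 at -0.49 (adjusted p = 0.0454). The Fosb call from 24 to 72 h was also lost without any 1 of 12 other libraries of these stages, with values of -0.54 to -0.71.

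Whether the members changed by unequal amounts was tested on the log2 ratio of 2 members within each library, which needs no scaling between libraries, with an exact permutation test of stage labels within regimens over 6 pairs and 5 stages (two-sided, p-values adjusted over 30 tests). Of the 30 tests 21 passed. They are not independent, as the 6 ratios of a stage are built from the same 4 genes and all stages share the same sham libraries. After ischemia alone Fos and Fosb had already gained on Fosl1 (differences 1.68 and 1.46, exact permutation adjusted p = 0.000375 and 0.000281). They had also gained on Fosl2 (0.96 and 0.74, exact permutation adjusted p = 0.00161 and 0.000422). Fosl1 had lost ground to Fosl2 there (-0.72, exact permutation adjusted p = 0.00268). The log2 ratio of Fosb to Fosl1 was 4.48 ± 0.92 at 3 h, against 1.44 ± 0.41 in sham (SD, n = 12 each; difference 3.04, exact permutation adjusted p = 0.000188). At 24 h the same ratio was -0.23 ± 1.17, against the same sham value, a difference of -1.67 (exact permutation adjusted p = 0.000422). It was also lower than in sham at 72 h (difference -0.64, exact permutation adjusted p = 0.00604). Fosb also gained on Fosl2 at 3 h, with a ratio of 0.71 ± 0.69 against -1.16 ± 0.16 in sham (difference 1.87, exact permutation adjusted p = 0.000188), as did Fos on Fosl2 (0.53 ± 1.15 at 3 h against -0.79 ± 0.38 in sham, difference 1.32, exact permutation adjusted p = 0.00513). Fosl1 lost ground to Fosl2 at 3 h (difference -1.17, exact permutation adjusted p = 0.00025) and gained on it at 24 h (1.17, exact permutation adjusted p = 0.00164). Between the 2 early genes, the ratio of Fos to Fosb was lower at 3 h than in sham (difference -0.56, exact permutation adjusted p = 0.0381), a call that leaving out replicate number 1, 2 or 3 ended (exact permutation adjusted p = 0.107, 0.195 and 0.0797). It was higher by 1.00 at 24 h (exact permutation adjusted p = 0.00133) and by 0.52 at 72 h (exact permutation adjusted p = 0.00501). Without the libraries that stood apart 21 of 30 tests again passed: Fos to Fosb at 3 h no longer did (-0.46, exact permutation adjusted p = 0.0656), and Fosb to Fosl2 at 24 h did (-0.65, exact permutation adjusted p = 0.00092, against -0.50 and 0.0513 with them).

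**Figure D3:**
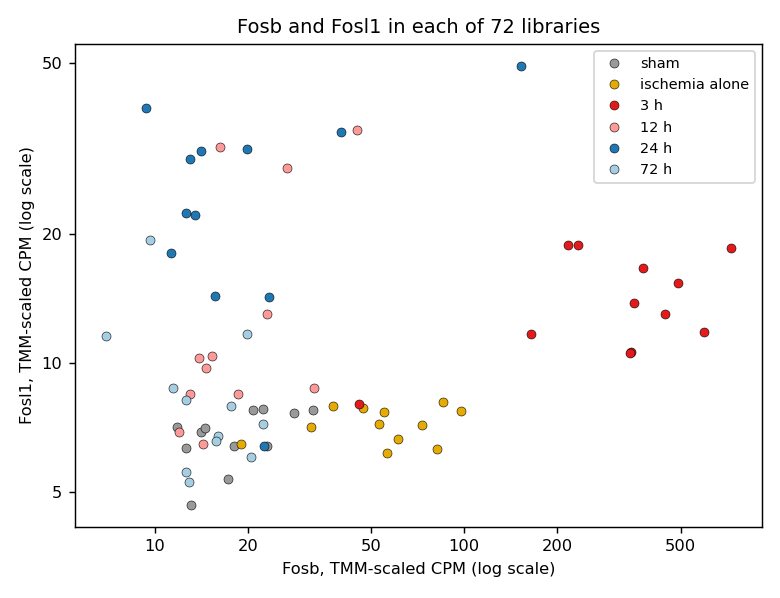
Fosb against Fosl1 in TMM-scaled CPM (both axes logarithmic), with 1 point for each of the 72 libraries, coloured by stage. Libraries of 3 h lie to the right at 45.8 to 728 CPM of Fosb, and those of 24 h lie higher, at 6.38 to 49.3 CPM of Fosl1, with all but 1 of them at or below 40.1 CPM of Fosb.

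On the FPKM scale, which is per length and allows genes to be compared, Fos was the most abundant member at every stage by its mean. In sham it had 22.9 ± 8.97 FPKM, against 7.16 ± 2.58 for Fosl2, 5.02 ± 1.81 for Fosb and 3.90 ± 0.66 for Fosl1 (SD, n = 12 each). At 3 h the order was Fos at 297 ± 168, Fosb at 91.3 ± 47.0, Fosl2 at 34.2 ± 16.7 and Fosl1 at 7.78 ± 2.04 FPKM. At 24 h Fosl1 came second by its mean, with 15.8 ± 6.97 FPKM behind 55.5 ± 35.3 for Fos and ahead of 11.5 ± 4.07 for Fosl2 and 7.75 ± 10.1 for Fosb. Without replicate 1 of 24 h IF16 the Fosb mean was 4.89 ± 2.15 FPKM (SD, n = 11). As a share of the family's summed FPKM, Fosb took 22.2 ± 6.88% at 3 h, against 13 ± 1.93% in sham (exact permutation adjusted p = 0.001 over 20 tests), and 7.52 ± 3.88% at 24 h (exact permutation adjusted p = 0.00135). At 72 h Fosb took 9.60 ± 2.37% (exact permutation adjusted p = 0.00231). Fosl1 took 4.25 ± 1.83% after ischemia alone, 2.65 ± 2.32% at 3 h, 16.2 ± 4.34% at 12 h and 18.3 ± 6.18% at 24 h, against 10.9 ± 3.30% in sham (exact permutation adjusted p = 0.0005, 0.0005, 0.00573 and 0.00135). Fosl2 took 12.2 ± 4.21% after ischemia alone and 9.82 ± 6.10% at 3 h, against 18.6 ± 2.78% in sham (exact permutation adjusted p = 0.00231 and 0.00244). The share of Fos was 69.9 ± 6.49% after ischemia alone, against 57.6 ± 6.66% in sham (exact permutation adjusted p = 0.00183), and did not pass the test at later stages. Of the 20 share tests 10 passed, and 11 without the libraries that stood apart, where Fos at 3 h took 67.2 ± 11.2% (exact permutation adjusted p = 0.0297). The shares of a library sum to the whole, so these tests are not independent either. FPKM rests on the gene lengths the authors used, which were 1092 bases for Fos, 3751 for Fosb, 1707 for Fosl1 and 5855 for Fosl2. Their annotation is not given in the sources used here, and they are shorter than the union of the GENCODE M21 exons. With GENCODE lengths Fos still had the highest mean at every stage and 10 share tests passed, but the order below Fos changed in sham, where Fosl1 took 16.5 ± 4.55% and Fosb 14.2 ± 1.87%. Fosl1 then took 6.88 ± 2.79% after ischemia alone, 4.18 ± 3.42% at 3 h, 23.7 ± 5.64% at 12 h and 27.1 ± 8.38% at 24 h. At 12 h Fosl1 came second by its mean, at 7.50 ± 5.25 FPKM ahead of 6.30 ± 2.95 for Fosl2, while with the authors' lengths it was at 8.93 ± 6.25, below Fosl2 at 10.4 ± 4.88.

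**Figure D4:**
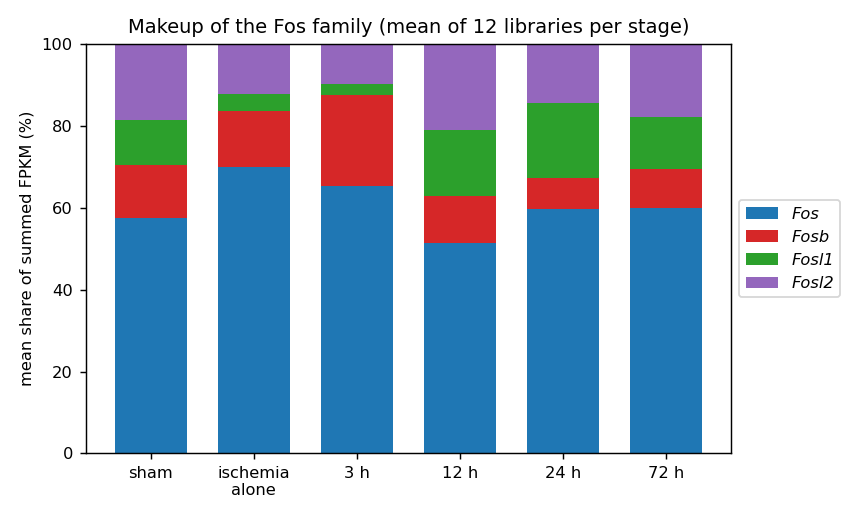
Mean share of each member in the summed FPKM of the 4 genes (percent, stacked to 100), with 1 bar of 12 libraries for sham, ischemia alone and each reperfusion time. Fosb widens to 22.2% at 3 h and Fosl1 to 18.3% at 24 h, against 13% and 10.9% in sham, with the gene lengths the authors used.

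Within single regimens, with 3 libraries a group, 18 of 80 tests of a member and stage against sham were called by edgeR, 40 passed at an unadjusted p under 0.05 and 24 with DESeq2. The calls were 2 of 20 in EOD, 8 in IF12, 4 in IF16 and 4 in AL. Over these contrasts an unadjusted p under 0.05 was held by 354 of 16355 genes (IF16, ischemia alone) to 8130 of 16426 (IF12, 24 h). DESeq2 called 4 of 16415 genes (EOD, ischemia alone) to 7035 of 16426 (IF12, 24 h). After ischemia alone, the IF12 libraries had 81.3, 118 and 107 CPM of Fos, against 12.0, 17.3 and 27.5 CPM in IF12 sham (log2 fold change 2.42 ± 0.40, edgeR adjusted p = 0.0309). Fosb had 55.1, 72.9 and 97.3 CPM there, against 14.2, 14.5 and 20.8 CPM in IF12 sham (2.18 ± 0.30, adjusted p = 0.00636). All 3 libraries of both genes lay above IF12 sham, as they did for 5.94% of genes, and 0.0426% of genes were called higher there. Fos had 99.2, 91.5 and 45.2 CPM in EOD, 111, 98.7 and 119 CPM in IF16 and 31.4, 45.2 and 94.6 CPM in AL after ischemia alone. No member was called in those regimens, where 0% of genes were called higher in EOD and AL and 0.00611% in IF16. The IF12 call of Fos was lost without replicate 3 of ischemia alone (2.39, adjusted p = 0.128), sham replicate 1 (2.18, adjusted p = 0.152) or sham replicate 2 (2.36, adjusted p = 0.314). That of Fosb was lost without sham replicate 1 (2.08, adjusted p = 0.0509) or 2 (2.09, adjusted p = 0.101).

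At 3 h Fosb was called in all 4 regimens. Its libraries had 45.8, 344 and 594 CPM in EOD (sham 12.7, 11.8 and 18.1 CPM), 164, 379 and 233 CPM in IF12 (sham 14.2, 14.5 and 20.8 CPM), 728, 446 and 489 CPM in IF16 (sham 28.2, 22.4 and 32.5 CPM) and 345, 216 and 354 CPM in AL (sham 13.1, 17.3 and 23.1 CPM). Each of these 3 h libraries lay above the sham libraries of its regimen, which was so for 8.36% of genes in EOD, 23.6% in IF12, 19% in IF16 and 10.2% in AL. The log2 fold changes were 4.53 ± 0.63 in EOD (edgeR adjusted p = 0.0165), 3.97 ± 0.32 in IF12, 4.33 ± 0.62 in IF16 (adjusted p = 0.00215) and 4.10 ± 0.44 in AL (adjusted p = 0.000739). The share of genes called higher at 3 h was 0.0305% in EOD, 13.4% in IF12, 4.56% in IF16 and 0.0304% in AL. The EOD call was lost without replicate 3 of 3 h (3.78, adjusted p = 0.0541) and without sham replicate 1, 2 or 3 (4.45, 4.41 and 4.74, adjusted p = 0.0924, 0.195 and 0.107). Fos had 25.4, 489 and 688 CPM in EOD, 169, 454 and 573 CPM in IF12, 292, 337 and 353 CPM in IF16 and 341, 106 and 263 CPM in AL at 3 h. Fos was called in IF12 (4.39 ± 0.43) and IF16 (3.29 ± 0.51, adjusted p = 0.00372) and was at 4.22 in EOD (adjusted p = 0.132; 4.78 and 0.0117 without replicate 1) and 3.11 ± 0.59 in AL (adjusted p = 0.076). Fosl2 had 71.6, 231 and 297 CPM in EOD, 78.5, 166 and 111 CPM in IF12, 247, 343 and 363 CPM in IF16 and 102, 208 and 322 CPM in AL. It was called in IF12 (1.66 ± 0.31, adjusted p = 0.0017), IF16 (2.43 ± 0.31, adjusted p = 0.00118) and AL (2.46 ± 0.36, adjusted p = 0.0273), and was at 2.54 ± 0.49 in EOD (adjusted p = 0.0693; 2.94 and 0.0117 without replicate 1). Fosb in EOD was at 5.04 without that library (adjusted p = 4.29e-06). The AL call was lost without 3 h replicate 2 (2.48, adjusted p = 0.0999) or 3 (2.0, adjusted p = 0.0834) or sham replicate 1 (2.27, adjusted p = 0.267) or 2 (2.39, adjusted p = 0.278). Fosl1 was called at 3 h in IF12, with 11.7, 16.7 and 18.9 CPM against 6.89, 7.06 and 7.76 CPM in IF12 sham (1.11 ± 0.23, adjusted p = 0.003).

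At 24 h Fosl1 was called in each regimen. It had 29.8, 14.3 and 31.2 CPM in EOD (sham 6.31, 7.06 and 6.4 CPM), 39.2, 22.2 and 22.4 CPM in IF12 (sham 6.89, 7.06 and 7.76 CPM), 49.3, 14.3 and 6.38 CPM in IF16 (sham 7.61, 7.80 and 7.74 CPM) and 18.1, 34.6 and 31.6 CPM in AL (sham 4.66, 5.35 and 6.39 CPM). All 3 libraries lay above sham in EOD, IF12 and AL, as they did for 21.9, 27.4 and 15.1% of genes, while IF16 overlapped with its sham. The log2 fold changes were 1.92 ± 0.52 in EOD (edgeR adjusted p = 0.042), 1.95 ± 0.24 in IF12 (adjusted p = 9.36e-05), 1.61 ± 0.46 in IF16 (adjusted p = 0.0294) and 2.36 ± 0.40 in AL (adjusted p = 0.0041). The share of genes called higher at 24 h was 2.22% in EOD, 20.2% in IF12, 8.54% in IF16 and 4.06% in AL. Without 24 h replicate 1 the IF16 value was 0.45 (adjusted p = 0.243), and without sham replicate 1, 2 or 3 it was 1.58, 1.61 and 1.62 (adjusted p = 0.0681, 0.0809 and 0.0996). The EOD call was lost without 24 h replicate 1 (1.78, adjusted p = 0.105) or 3 (1.74, adjusted p = 0.136) and without sham replicate 1, 2 or 3 (1.89, 1.97 and 1.90, adjusted p = 0.122, 0.127 and 0.159). Fos was called at 24 h in IF12 with 47.6, 35.3 and 44.2 CPM, against 12.0, 17.3 and 27.5 CPM in IF12 sham (1.17 ± 0.39, adjusted p = 0.0246), a call lost without 24 h replicate 1 (1.08, adjusted p = 0.0738) or 3 (1.14, adjusted p = 0.055) or sham replicate 1 (0.93, adjusted p = 0.0906) or 2 (1.10, adjusted p = 0.0815).

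At 12 h the one call was Fosl1 in AL, with 34.8, 8.74 and 28.5 CPM against 4.66, 5.35 and 6.39 CPM in AL sham (log2 fold change 2.14 ± 0.39, edgeR adjusted p = 0.0187). Fosl1 at 12 h had 6.89, 9.70 and 31.9 CPM in EOD, 13, 10.4 and 8.46 CPM in IF12 and 6.45, 10.3 and 8.47 CPM in IF16. The share of genes called higher at 12 h was 0.00609% in EOD, 0% in IF12, 0.0183% in IF16 and 1.12% in AL. The AL call was lost without 12 h replicate 1 (1.77, adjusted p = 0.0674) or 3 (2.0, adjusted p = 0.0655) and without sham replicate 1, 2 or 3 (2.03, 2.12 and 2.26, adjusted p = 0.107, 0.0778 and 0.0906). Fos and Fosb, at -1.26 and -1.0 in IF16 and 1.37 and 0.98 in AL, were not called by edgeR at 12 h. All 3 of their libraries lay below IF16 sham in IF16 and above AL sham in AL, as 14.1 and 9.42% of genes did. Fosl2 also lay below IF16 sham in all 3 IF16 libraries. In AL at 12 h all 4 members had an unadjusted p under 0.05, as had 2983 of 16452 genes. DESeq2 called 2 of the 4 there and 843 of all genes. At 72 h edgeR called 0 of 16 tests within regimens, 1 passed at an unadjusted p under 0.05 and 0 with DESeq2, where 0% of genes were called in EOD, 24.5% in IF12, 0.483% in IF16 and 5.12% in AL. Fosl1 at 72 h lay above sham in all 3 libraries of IF12 and of AL, as 19.7 and 12.4% of genes did, and below it in IF16, as 14.6% did. In a fit of all 72 libraries the IF12 calls of Fos and Fosb after ischemia alone (adjusted p = 0.718 and 0.308), of Fosl1 at 3 h (adjusted p = 0.0643) and of Fos at 24 h (adjusted p = 0.163) were lost. With only the libraries of the groups compared, Fos and Fosb after ischemia alone in IF12 (adjusted p = 0.132 and 0.118), Fosb at 3 h in EOD (adjusted p = 0.0739), Fosl1 at 12 h in AL (adjusted p = 0.0846) and Fosl1 at 24 h in IF16 (adjusted p = 0.174) lost theirs.

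**Figure D5:**
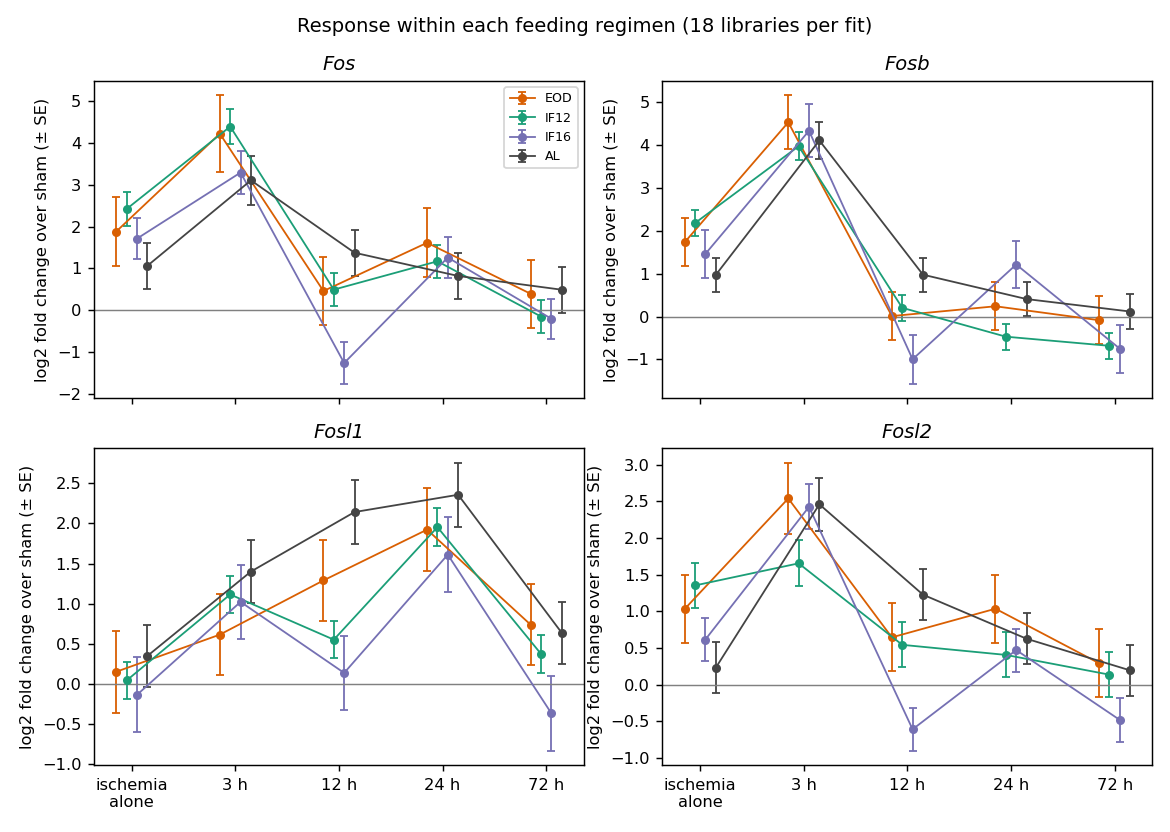
Log2 fold change over sham within each feeding regimen, with bars of 1 SE, for each member and stage (edgeR, 18 libraries per fit). Fosb lies between 3.97 and 4.53 at 3 h in the 4 regimens, and at 12 h Fosb has -1.0 in IF16 and 0.98 in AL.

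Set directly against AL at the same stage, no member passed the adjusted edgeR test in any fasting regimen, which does not show that levels were equal. Of 72 tests 0 were called, 19 passed at an unadjusted p under 0.05 and 8 with DESeq2. By edgeR 0.277% of genes were called in EOD and 8.75% in IF12 at 3 h, and 0% in the other 16 contrasts. An unadjusted p under 0.05 was held by 380 of 16177 genes (IF12 at 72 h) to 5100 of 15981 (IF16 in sham). In the contrasts with member calls, DESeq2 called 2702 of 15981 genes for IF16 in sham. It called 155 (IF12) and 176 (IF16) of 15991 after ischemia alone, and 1 (EOD), 164 (IF12) and 86 (IF16) of 16242 at 12 h. In sham, IF16 libraries had 7.61, 7.80 and 7.74 CPM of Fosl1, against 4.66, 5.35 and 6.39 CPM in AL. They did not overlap, as for 15.8% of genes with IF16 above AL (log2 difference 0.48 ± 0.13, edgeR adjusted p = 0.0665, DESeq2 adjusted p = 0.0201). Fosb in sham had 28.2, 22.4 and 32.5 CPM in IF16, against 13.1, 17.3 and 23.1 CPM in AL, with overlap (0.62, edgeR adjusted p = 0.0983, DESeq2 adjusted p = 0.0451). After ischemia alone, Fosl2 had 100, 73.9 and 115 CPM in IF12 and 76.4, 93.3 and 103 CPM in IF16, against 47.3, 44.9 and 42.5 CPM in AL. The differences were 1.09 for IF12 (edgeR adjusted p = 0.28, DESeq2 adjusted p = 0.00267) and 1.00 for IF16 (edgeR adjusted p = 0.263, DESeq2 adjusted p = 0.00741). Fosb in the same groups had 85.3, 61.3 and 81.8 CPM in IF16, against 19.0, 32.0 and 52.9 CPM in AL (1.12, edgeR adjusted p = 0.264, DESeq2 adjusted p = 0.0425). After ischemia alone, summed striatal projection neuron markers were 349 to 893 CPM in AL, 1590 to 2563 in IF12 and 1911 to 2867 in IF16. Summed thalamus markers were 392 to 526 CPM in AL, 209 to 385 in IF12 and 174 to 299 in IF16. The part of the tissue sampled in these differences was not tested.

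At 12 h all 3 fasting regimens had lower Fosb than AL in every library. Fosb had 12.0, 14.7 and 16.3 CPM in EOD, 23.1, 15.3 and 18.6 CPM in IF12 and 14.3, 14.0 and 13 CPM in IF16, against 45.1, 32.8 and 26.7 CPM in AL. So complete a separation below AL was found for 2.44% of genes in EOD, 9.61% in IF12 and 4.81% in IF16. The log2 differences were -1.29 ± 0.21 for EOD (edgeR adjusted p = 0.862, DESeq2 adjusted p = 0.000227), -0.88 ± 0.21 for IF12 (edgeR adjusted p = 0.258, DESeq2 adjusted p = 0.0179) and -1.35 ± 0.21 for IF16 (edgeR adjusted p = 0.37, DESeq2 adjusted p = 5.13e-05). Fos had 10.05, 20.8 and 10.6 CPM in IF16 at 12 h, against 131, 43.6 and 39.0 CPM in AL (-2.37 ± 0.70, edgeR adjusted p = 0.433). Replicate 1 of the 12 h AL group also had a summed neutrophil marker level of 60.6 CPM, against 2.45 CPM or less in sham, and a summed endothelial marker level of 460 CPM, against 246 to 315 CPM in sham. Without that library the Fosb differences were -1.04 for EOD, -0.64 for IF12 and -1.09 for IF16, and that of Fos for IF16 was -1.56 (edgeR adjusted p = 0.741). Averaged over the 6 stages, edgeR called 0 of 12 tests of a fasting regimen against AL, 1 passed at an unadjusted p under 0.05 and 0 with DESeq2, where 0% of genes were called in EOD and IF12 and 0.682% in IF16.

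Whether the stroke response itself differed between a fasting regimen and AL was tested over the 5 stages together. Of 12 tests 1 was called, Fosb in IF12 (edgeR adjusted p = 0.0293), where 15% of genes were called, and 7 had an unadjusted p under 0.05. Such an unadjusted p was held by 5375 of 16901 genes in IF12, 2632 of 16861 in IF16 and 775 of 16898 in EOD. The response of Fosb in IF12 minus that in AL was 1.23 on the log2 scale after ischemia alone, -0.12 at 3 h, -0.76 at 12 h, -0.88 at 24 h and -0.79 at 72 h. The call was lost in the fit of all 72 libraries (adjusted p = 0.162) and without replicate number 1, 2 or 3 (adjusted p = 0.0597, 0.154 and 0.475). Fosl2 (edgeR adjusted p = 0.0521), Fos (0.0685) and Fosl1 (0.117) did not pass in IF12 with edgeR, while DESeq2 called Fosl2 (adjusted p = 0.0114) and Fos (adjusted p = 0.0298) and 3 of the 4 members in all. DESeq2 called 4033 of 16901 genes in IF12 and 407 of 16861 in IF16. In IF16, where 0.273% of genes were called by edgeR, the 4 edgeR adjusted p-values ran from 0.13 for Fosl2 to 0.335 for Fosl1, and DESeq2 called Fosl2 (adjusted p = 0.00963). Without replicate 1 of 24 h IF16, Fosb passed there (adjusted p = 0.0446). In EOD, where 0% of genes were called, all 4 had an adjusted p of 1.

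Over the 24 groups, the highest mean levels of Fos were 401 ± 340 CPM in EOD, 399 ± 207 CPM in IF12, 327 ± 31.8 CPM in IF16 and 237 ± 120 CPM in AL, all at 3 h (SD, n = 3 each), and the lowest was 13.8 ± 6.05 CPM in IF16 at 12 h. Fosb was highest at 3 h, with 554 ± 152 CPM in IF16, and lowest at 72 h in IF12, with 10.4 ± 2.97 CPM. Fosl1 was highest at 24 h in AL, with 28.1 ± 8.82 CPM, and lowest in AL sham, with 5.47 ± 0.87 CPM. Fosl2 was highest at 3 h in IF16, with 318 ± 62.0 CPM, and lowest in EOD sham, with 34.3 ± 5.58 CPM. Of the 23 pairs of neighbours in each gene's order of groups, the libraries overlapped in all 23 for Fos, Fosl1 and Fosl2 and in 22 for Fosb, where 3 h IF12 (259 ± 110 CPM) stood clear of ischemia alone in IF16 (76.1 ± 12.9 CPM). Across the 24 group means of log2 CPM, Pearson's r was 0.939 between Fos and Fosb, 0.942 between Fosb and Fosl2 and 0.917 between Fos and Fosl2, against 0.312 between Fos and Fosl1, 0.353 between Fosl1 and Fosl2 and 0.131 between Fosb and Fosl1. Within groups, over deviations from the group mean in the same 72 libraries, r was 0.78 for Fos and Fosb, 0.518 for Fos and Fosl2, 0.517 for Fosb and Fosl2, 0.524 for Fos and Fosl1, 0.511 for Fosl1 and Fosl2 and 0.341 for Fosb and Fosl1, so that within groups the pairs with Fosl2 were near most pairs with Fosl1. The genes outside the family most like each member over these 24 means were Junb (r = 0.977), Btg2 (0.937) and Dusp1 (0.93) for Fos, Egr4 (0.946), Gpr3 (0.938) and Arl4d (0.936) for Fosb, Rdh10 (0.956), Procr (0.955) and Ccl7 (0.953) for Fosl1, and Irs2 (0.948), Sik1 (0.914) and Junb (0.908) for Fosl2. These are descriptions over groups that share stages.

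The counts of the following lists stand beside 0.139% of all genes called in either direction after ischemia alone, 21.8% at 3 h, 21.6% at 12 h, 49.8% at 24 h and 27.2% at 72 h. Of the dimer partners, the 3 Jun genes, all 3 were called higher at 3 h by edgeR, with log2 fold changes over sham of 2.44 ± 0.24 for Jun, 2.04 ± 0.22 for Junb and 1.11 ± 0.13 for Jund. All 3 were also higher at 24 h (1.33 for Jun, 0.57 for Junb, 0.31 for Jund), Jun alone was at 12 h (0.81) and 72 h (0.59), and 0 of 3 were after ischemia alone, where their median was 0.79. Of 10 other bZIP relatives, 6 were higher and 1 lower at 3 h, 6 and 1 at 24 h. Atf3, a stress-induced partner of Jun proteins, was at 5.89 and Maff, a small Maf protein, at 4.24 at 3 h. Of 17 kinases and factors known to act upstream of Fos genes, 3 were higher and 1 lower at 3 h, a share near that of all genes, among them Crem, a CREB relative, at 0.75 and Srf, which binds the CArG box, at 0.59. Camk4, a calcium-dependent kinase, fell by 0.49. Of 16 other immediate early genes, 6 were higher after ischemia alone (median of the list 0.72) and 15 at 3 h (median 1.68), against medians of all genes of -0.0018 and -0.011. Npas4, a neuron-specific activity factor, was at 2.32 after ischemia alone and 3.60 at 3 h. At 12 h 0 of the 16 were higher and 3 lower, Egr4, Nr4a1 and Egr1, and at 24 h 4 were higher and 5 lower. Of 16 known AP-1 target genes, 0 were called after ischemia alone, 8 were higher and 0 lower at 3 h, 8 and 2 at 12 h, 12 and 3 at 24 h and 11 and 2 at 72 h. Ccl2, a monocyte chemokine, was at 5.10 at 3 h and 7.02 at 24 h, and the matrix protease Mmp3 was at 8.49 at 24 h.

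Markers of other cells moved at the same stages. Of 9 striatal projection neuron markers, 7 fell at 3 h and all 9 fell at 12, 24 and 72 h, with a list median of -2.79 at 24 h, and their summed level was 327 to 2087 CPM at 3 h and 229 to 876 CPM at 24 h, against 714 to 3106 CPM in sham. In tissue of mixed cells, fewer cells of a type, less RNA per cell and a difference in what a section held cannot be told apart. Within sham alone, summed choroid plexus and ependyma markers ran from 45.8 to 3648 CPM and thalamus markers from 137 to 666 CPM. Of the 5 neutrophil markers tested out of 8, 4 were higher at 3 h and 4 at 24 h, with summed levels of all 8 of 0.741 to 12.8 CPM at 3 h and 0.709 to 61.9 CPM at 24 h, against 0.0466 to 2.45 CPM in sham, and Ly6g was at 0 in every library of ischemia alone. Of 8 monocyte and macrophage markers, 3 were higher at 3 h and 6 at 24 h, with sums of 5.46 to 13.7 CPM and 11.7 to 45.1 CPM, against 4.04 to 11.02 CPM in sham. Of 8 endothelial markers, 5 were higher and 1 lower at 24 h, where their sum was 262 to 676 CPM, against 246 to 315 CPM in sham. Of 8 general neuronal markers, 1 was higher and 1 lower at 3 h and 6 fell at 24 h. At 72 h, 7 of 8 monocyte and macrophage markers, 6 of 8 microglial markers and all 8 meningeal fibroblast markers were higher. At 12 h, 4 of 8 monocyte and macrophage markers and 2 of the 5 neutrophil markers were higher, and 5 of 8 microglial markers were lower. After ischemia alone 0 markers of the 13 cell type lists were called, where 0.139% of all genes were, and the list medians were -0.54 for striatal and 1.51 for neutrophil markers. The part of these cells in the levels of the Fos genes was not tested at any stage.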

How the data were processed

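The deposited table holds whole-number read counts per gene and library, and FPKM values beside them. Per the submitters' processing notes, the authors used CASAVA, TopHat2 and DESeq2 with the GRCm38/mm10 build, and the annotation and counting rule behind the counts were not stated. The deposited FPKM values equalled counts divided by a gene length and the library total (largest relative deviation 1.8e-07), so they hold no further normalization. RNA integrity was above 7, per the labels' protocols. Symbols and coordinates came from GENCODE M21 (34490 of 35275 identifiers matched).

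Counts were fitted in R 4.3.3 with edgeR 4.0.16 (TMM factors 0.912 to 1.094, filterByExpr, quasi-likelihood F test), and Benjamini-Hochberg adjusted p-values ran over all genes of a contrast, called under 0.05. SE is the log2 fold change over the root of F. Stage contrasts used all 72 libraries, regimen contrasts 18, fasting contrasts 12, and averages over stages and interactions 36. Ratios used counts plus 0.5 and, like shares, an exact permutation test within regimens. DESeq2 1.42.0, no low-count filter, other sets of libraries, a replicate block and left-out replicates or regimens were alternatives, and the fits were tested on simulated data. Fits of the stage contrasts without a single library kept the gene filter and dispersion trend of all 72. Within-group library pairs differed by 5.18 chi-square units a gene or more, above sampling noise, so none was counted as 1 sample. Taken over all groups, replicate numbers did not pair samples.

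The 4 members, the 18 gene lists, tests and alternatives were chosen with earlier results of these data known. The named genes are the members, the Jun genes, at most 3 called members of each list with the largest change, and for each member the 3 most correlated genes. Sequences are from RefSeq, build GRCm38.p6, and motifs were searched on both strands.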

Additional observations from a re-analysis of the deposited data

Results flagged for a closer look

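Fosb was flagged because a test of the difference itself between the IF12 and AL responses over the 5 stages called it (edgeR adjusted p = 0.0293). That test called 15% of all genes. The Fosb call was lost in the fit of all 72 libraries and when any single replicate number was left out. The largest of the 5 terms was 1.23 on the log2 scale after ischemia alone, and the terms from 3 to 72 h were below 0.

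Fos and Fosb at 12 h were flagged because the libraries of 2 regimens lay on opposite sides of sham. In both genes, all 3 IF16 libraries were below every IF16 sham library, and all 3 AL libraries were above every AL sham library. The count of such regimens was thus 2 for Fos and 2 for Fosb. Of all genes, 14.1% lay wholly below sham in IF16 at 12 h and 9.42% wholly above sham in AL. The share of genes that did both was not computed. Fos had 10.05, 20.8 and 10.6 CPM in IF16 at 12 h (sham 38.8, 28.1 and 33.8 CPM) and 131, 43.6 and 39.0 CPM in AL at 12 h (sham 12.5, 34.9 and 35.4 CPM). The term at 12 h alone was not tested as a difference of responses. Set directly against AL at 12 h, IF16 was at -2.37 for Fos (edgeR adjusted p = 0.433) and -1.35 for Fosb (edgeR adjusted p = 0.37, DESeq2 adjusted p = 5.13e-05). The interaction over 5 stages had an edgeR adjusted p of 0.181 for Fos and 0.234 for Fosb in IF16, and its 12 h term, IF16 minus AL, was -2.64 for Fos and -1.97 for Fosb on the log2 scale.

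Fosl1 at 72 h was flagged over 3 regimens. All libraries of IF12 and AL lay above the sham libraries of their regimen and all IF16 libraries lay below theirs, with 8.75, 11.5 and 8.19 CPM in IF12, 5.26, 6.56 and 6.03 CPM in IF16 and 6.74, 7.19 and 11.7 CPM in AL. Taken 1 regimen at a time, 19.7% of genes lay above sham in IF12, 12.4% above it in AL and 14.6% below it in IF16. Within regimens at 72 h, 0 of 16 member tests were called by edgeR or by DESeq2. The term at 72 h alone was not tested as a difference of responses. Set directly against AL at 72 h, Fosl1 was at 0.16 in IF12 (edgeR adjusted p = 1.0) and -0.50 in IF16 (edgeR adjusted p = 0.768), and the interaction over 5 stages had an edgeR adjusted p of 0.117 for IF12 and 0.335 for IF16.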

How the results depend on the processing

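No called result changed its direction under any alternative run, while uncalled values near 0 could, such as Fosb at 24 h, which was at -0.08 without the libraries that stood apart. For called stage values against sham and counts of calls, 681 alternatives kept the call or, for counts, stayed within 1.5 times the main count. Another 10 fell short of the threshold, and 32 counts moved by more than that, or to or from 0. These alternatives include fits that left out a single library. Of the other values, which include single members between successive stages and within regimens, 1441 stayed on their side, 103 fell short of the threshold and 18 came to pass it. Without the IF12 regimen, Fos and Fosb after ischemia alone were at 1.54 and 1.38 and lost their calls, and 8 of 16 tests between successive stages were called, against 13 in the main analysis. Without AL, Fosl1 at 12 h was at 0.65. Leaving out 1 replicate number or library at a time gave 1.62 to 1.89 for Fos and 1.47 to 1.65 for Fosb after ischemia alone, 0.78 to 1.15 for Fosl1 at 12 h and 0.38 to 0.90 for Fosl2 at 24 h, and some of these fits lost the call. Fewer libraries entered these fits, and the cause was not otherwise tested.

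Calls within regimens were 7 in AL with DESeq2 (4 in the main analysis, 2 to 5 with a replicate left out), 4 in EOD with DESeq2, with all 72 libraries, with no filter and without the libraries that stood apart (main 2, 0 to 4), 4 in IF12 with all 72 libraries (main 8, 5 to 8) and 8 in IF16 without the libraries that stood apart (main 4, 3 to 6). Fasting against AL within a stage gave 0 calls in the main analysis, 8 with DESeq2, 1 with no filter, 2 with only the 2 groups compared and 0 to 3 with a replicate left out. The interaction gave 1 call in the main analysis, 4 with DESeq2 and with no filter, 0 with all 72 libraries, 2 without the libraries that stood apart and 0 to 1 with a replicate left out. Successive stages gave 9 to 13 and the ratios 13 to 20 calls of 30 with a replicate left out. Over all genes, DESeq2 called as many as edgeR or more in every contrast. For IF16 against AL in sham, edgeR called 0 of 15981 genes and DESeq2 2702. For the IF12 interaction they called 2527 and 4033 of 16901. Shares over all genes under the other alternatives are not given here. The changes in member counts thus cannot be read as particular to the Fos genes.

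Taken over all groups, replicate numbers did not pair the samples. Same-numbered libraries had a median correlation of -0.0088 in their deviations from the group means, against 0.005 for libraries of different numbers. Pairing within only some of the groups was not tested. With the replicate number as a block, Fosl2 after ischemia alone was called (0.82, edgeR adjusted p = 0.0288), Fosl1 at 24 h in EOD was not (1.92, adjusted p = 0.056), and 2 of 72 tests of fasting against AL were called. Each member had at least 91 counts in every library, and the spread between 3 libraries a group limits these tests.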
